A study of Homo sapiens with 6 samples.

Results

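The genes described here encode the Fanconi anemia (FA) pathway and the homologous recombination (HR) machinery, 38 genes taken by symbol from the deposited count table of 19470 genes. All 38 had a row in the table, and all 38 passed the filter on low counts and were among the 13066 genes tested. The libraries came from HCCC9810 cells, an established human cholangiocarcinoma (CCA) line that the labels give as wild type. Cells received 20 μM isolinderalactone (ILL), a sesquiterpenoid lactone from Lindera plants, or the DMSO vehicle, each for 24 h, with 3 libraries per group. A single cell line, dose and time were sequenced, and the labels do not say whether the libraries of a group came from separate cultures, so p-values measure the spread between these libraries, which may be technical.

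HR repairs DNA breaks by copying the sister chromatid. Broken ends are sensed and trimmed to single strands, a recombinase is loaded onto them by the BRCA proteins, and the joined molecules are later dissolved or cut. The FA pathway acts where replication meets a crosslink between the strands: a core complex attaches ubiquitin to FANCD2 and FANCI, which brings in nucleases, and HR completes the repair. Many of these genes are transcribed mainly in cells that replicate their DNA.

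Total counts per library were from 34282764 to 37758569, and the lowest count of any member in any library was 26, in EME1. The ILL counts of EME1 (26, 60 and 40) and FANCB (38, 50 and 27) were low enough for counting error to limit their precision, and these genes had the widest standard errors of the 38 members, 0.22 and 0.18 on the log2 scale. No pair of replicates was close enough in its counts to be 1 library deposited again (chi-square of at least 5.09 for each degree of freedom), so each was used as 1 replicate. The summed level of the biliary markers was from 9050 to 9292 CPM (counts scaled to the same library total) in control and from 9531 to 10120 CPM in ILL libraries. Of 8 markers of hepatocytes, fibroblasts, leukocytes and endothelium, the summed level was from 52.5 to 62.0 CPM in control and from 134 to 143 CPM in ILL libraries, most of it CD68, a lysosomal protein. PTPRC was at 0 counts in 3 libraries, and its highest count was 9.

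ILL treatment lowered the transcripts of most of these genes. With the threshold set at an adjusted p of 0.05 in the quasi-likelihood test of edgeR, 33 of the 38 members fell, beside 36.9% of all genes tested, and 1 rose, beside 36.2%. With the added cutoff of a fold change under 0.5, 23 of 38 members, or 60.5%, were differentially expressed genes (DEGs) lower with ILL, beside 11.4% of all genes tested. None was a DEG higher with ILL at a fold change above 2, beside 12.5%. The median log2 fold change of the members was -1.65, against -0.0012 for all genes tested. The members and the gene lists used below were chosen with earlier results of these data known. Their shares beside those of all genes are thus descriptions.

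In 33 members every ILL library lay below every control library in CPM, beside 38% of all genes tested. In 1 member every ILL library lay above, beside 37.5%, and in the other 4 the groups overlapped. The summed level of all 38 members was 1416, 1420 and 1369 CPM in control libraries and 609, 631 and 633 CPM in ILL libraries. The 3 values of each group thus lay close together, with a gap between the groups far wider than the spread within them. In bulk RNA, fewer cells that transcribe a gene and less RNA per cell cannot be told apart.

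The fall was uneven by role. All 4 genes of the BLM complex and both FANCD2 and FANCI were DEGs lower with ILL, while none of the 4 genes for break sensing and resection was. Of the genes for the FA core complex and its ubiquitin-conjugating enzyme, 6 of 9 were DEGs lower with ILL. So were 3 of 5 BRCA genes, 3 of 5 recombinase paralogs, 3 of 4 recombinase partners and 2 of 5 nuclease genes. Over all genes tested the share of DEGs lower with ILL was 11.4%. The median log2 fold change was -2.65 for FANCD2 and FANCI, -2.49 for the recombinase partners, -2.13 for the core complex, -2.12 for the BRCA genes, -1.65 for the BLM complex and -1.57 for the paralogs. It was -0.40 for the nucleases and -0.27 for break sensing and resection.

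Proliferation genes moved with the members. All 16 genes of a list of replication and mitosis markers were DEGs lower with ILL, with a median log2 fold change of -2.72. Their summed level was from 3677 to 3759 CPM in control and from 514 to 549 CPM in ILL libraries. The lowest log2 fold changes were those of TOP2A (-3.55), CCNA2 (-3.29) and AURKB (-3.28), and the highest those of MCM5 (-1.90), MCM6 (-2.08) and MCM3 (-2.14). The part of a change in the share of dividing cells in the fall of the members was not tested.

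To see what sequence the members share, their promoters were read from RefSeq on GRCh38.p14, as windows of 250 bases before and 50 bases after each annotated start. A window was found for 34 of the 38 genes, and each motif was searched on both strands. The E2F letters (TTTCCCGC, TTTGGCGC, TTTCGCGC or TTTGCCGC) were present for 6 of 34 members, or 17.6%, against 6.58% of 10482 tested genes with a window. Counted by window, since a gene can have several, they were in 6 of 46 windows of the members and in 3.31% of all 35116 windows. The genes were FANCA, FANCC, FANCD2, GEN1, RMI1 and XRCC2, of which 5 were DEGs lower with ILL, as were 15 of the 28 members without these letters, and the median log2 fold change was -2.13 with and -1.27 without them. Over all tested genes with a window, 20.7% with the E2F letters and 10.6% without them were DEGs lower with ILL, with medians of -0.24 and 0. CCAAT was present for 15 of 34 members, or 44.1%, against 42.9% of tested genes, and in 17 of 46 windows against 34.6% of all windows, and the median was -2.13 with and -1.08 without it. The CHR letters (TTTGAA) were present for 4 of 34 members, or 11.8%, against 13.8% of tested genes, and in 4 of 46 windows against 15.2% of all windows. The median was -0.76 with them and -1.90 without. Over all tested genes with a window, 17.7% with the CHR letters and 10.2% without them were DEGs lower with ILL. Their medians were -0.0758 and -0.0033. For CCAAT the shares over all these genes were 13.1% with it and 9.89% without, with medians of -0.0462 and 0.01. No motif holds the letters of another, although neighbouring matches can share end bases, and a match is a description of the window, not a site.

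The 150 bases before the start are shown for 5 members whose stretch holds no annotated exon, 3 that fell steeply (FANCB, RAD54L and FANCM) and 2 that fell less than 2-fold or did not pass the test (FANCC and BRIP1). They were picked with their values known, and capitals mark motif letters that lie wholly in the stretch. The positions are chrX:14873070-14873219 on the minus strand for FANCB, chr1:46247538-46247687 on the plus strand for RAD54L, chr14:45135780-45135929 on the plus strand for FANCM, chr9:95317710-95317859 on the minus strand for FANCC and chr17:61863529-61863678 on the minus strand for BRIP1.
FANCB: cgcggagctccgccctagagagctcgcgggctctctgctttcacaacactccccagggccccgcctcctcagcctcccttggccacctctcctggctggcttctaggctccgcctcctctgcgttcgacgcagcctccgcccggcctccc
RAD54L: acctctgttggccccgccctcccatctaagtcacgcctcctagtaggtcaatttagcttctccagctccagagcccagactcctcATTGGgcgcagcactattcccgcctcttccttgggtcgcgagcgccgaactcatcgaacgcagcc
FANCM: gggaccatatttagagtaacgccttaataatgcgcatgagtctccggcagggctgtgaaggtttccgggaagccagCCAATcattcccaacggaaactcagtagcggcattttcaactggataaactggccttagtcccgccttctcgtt
FANCC: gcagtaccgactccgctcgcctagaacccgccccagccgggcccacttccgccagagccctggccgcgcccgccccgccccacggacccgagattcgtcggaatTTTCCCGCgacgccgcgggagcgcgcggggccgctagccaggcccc
BRIP1: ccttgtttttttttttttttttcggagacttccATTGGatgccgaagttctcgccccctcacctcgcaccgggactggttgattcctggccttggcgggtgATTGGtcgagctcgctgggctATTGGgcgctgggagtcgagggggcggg

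None of the 3 motifs was found in the FANCB window, although FANCB had the lowest log2 fold change of the 38. BRIP1, which did not pass the test, held CCAAT on the opposite strand at 117, 49 and 28 bases before the start. RAD54L held CCAAT at 65 bases and again across the start, and FANCM at 74 and 207 bases. FANCC held E2F letters at 46 bases and again at 172 bases, the latter outside the stretch shown. FANCC and BRIP1 also held CHR letters, at 248 and 240 bases. Among the members shown, which were picked with their values known, matches occurred in some that fell steeply and in some that did not. Of the 6 members with E2F letters, 5 were DEGs lower with ILL, and none of these 5 is shown.

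Levels below are FPKM, which divide counts by gene length and by the total count of the library, and fold changes come from edgeR, which also adjusts for composition. Control means ranged from 0.782 FPKM for RAD51B to 113 FPKM for UBE2T with a median of 5.66, and ILL means from 0.140 FPKM for FANCB to 24.6 FPKM for MUS81 with a median of 1.69. Only 1 member was under 1 FPKM in control libraries, against 11 in ILL libraries. The order of levels changed: UBE2T, FANCG, RBBP8, RAD51AP1 and FANCI had the highest control means, and MUS81, RBBP8, UBE2T, NBN and RAD50 the highest ILL means. Several neighbours in these orders do not differ beyond their spread, among them NBN at 16.1 ± 1.25 and RAD51C at 16.1 ± 1.31 FPKM (SD, n = 3) in control libraries.

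**Figure D1:**
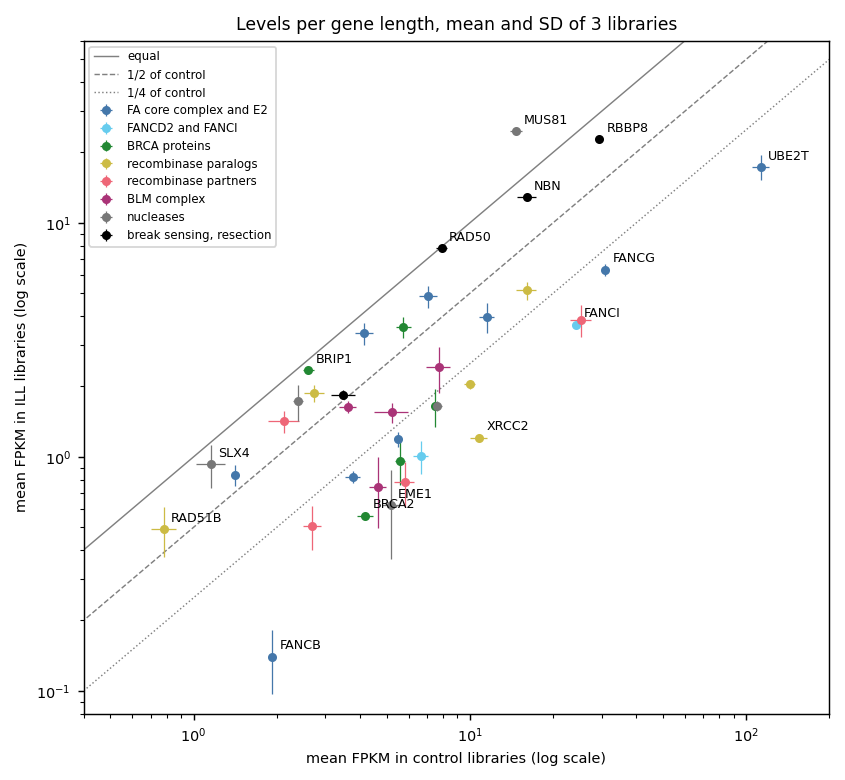
Mean FPKM in ILL libraries against mean FPKM in control libraries for the 38 genes, both on log axes, with SD over 3 libraries as bars and lines at equal level, at 1/2 and at 1/4 of control. MUS81 lies above the line of equality, RAD50 on it, and FANCB farthest below it.

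The FA core complex is the ubiquitin ligase of the pathway. FANCB, a scaffold subunit of its catalytic module, lies on chromosome X of GRCh38 from 14835961 to 14873069. It was at 1.92, 1.88 and 1.98 FPKM in control libraries and at 0.139, 0.183 and 0.0980 FPKM in ILL libraries. Every ILL library was far below every control library, and the log2 fold change was -3.71 (SE, the standard error, 0.18; adjusted p = 3.18e-15 by edgeR), which is 13.1-fold lower. FANCL, the RING subunit that carries the ligase activity, was at 11.5 ± 0.706 FPKM (SD, n = 3) in control and 3.97 ± 0.589 FPKM (SD, n = 3) in ILL libraries, a log2 fold change of -1.47. UBE2T, the E2 enzyme that works with FANCL and the most abundant member in controls, was at 115, 120 and 104 FPKM in control and at 16.9, 15.5 and 19.7 FPKM in ILL libraries. The groups were far apart, with a log2 fold change of -2.63 (SE 0.08, adjusted p = 2.97e-19 by edgeR).

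Other subunits of the core complex did not fall together. FANCG, which joins FANCA in a subcomplex, was at 30.8, 30.5 and 31.3 FPKM in control and at 6.09, 6.73 and 6.10 FPKM in ILL libraries. FANCG and FANCA fell by nearly the same amount, 2.22 and 2.14 on the log2 scale, and FANCM, the helicase-like subunit that anchors the complex to DNA, fell by 2.13. In contrast, the subunits of the C-E-F module changed less. FANCC fell by 0.68 (adjusted p = 2.35e-05 by edgeR) and FANCE by 0.47 (adjusted p = 0.000336). FANCF had a log2 fold change of -0.23 (SE 0.12, adjusted p = 0.0794 by edgeR). FANCF passed the test in 5 of 15 alternatives, with adjusted p from 0.0166 to 0.26. Its value was -0.29 (adjusted p = 0.0481 by edgeR) without control replicate 3 and -0.30 (adjusted p = 0.0413) without ILL replicate 1. As a result FANCF, at 3.37 ± 0.355 FPKM (SD, n = 3), was above FANCA, at 1.19 ± 0.0881 FPKM (SD, n = 3), in ILL libraries and below it in controls. FANCE, at 4.85 ± 0.541 FPKM (SD, n = 3) in ILL libraries, was above FANCA in both groups.

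FANCD2 and FANCI form the clamp that the core complex ubiquitinates. FANCI was at 25.2, 23.9 and 23.7 FPKM in control and at 3.55, 3.77 and 3.70 FPKM in ILL libraries. FANCD2 was at 6.18, 6.71 and 7.03 FPKM in control and at 1.19, 0.889 and 0.947 FPKM in ILL libraries. FANCI was 6.30-fold lower (log2 fold change -2.65, SE 0.07, adjusted p = 5.19e-21 by edgeR) and FANCD2 6.27-fold lower (log2 fold change -2.65, SE 0.11, adjusted p = 4.94e-17). The ratio of FANCD2 to FANCI within a library was 0.274 ± 0.0265 (SD, n = 3) in control and 0.276 ± 0.0529 (SD, n = 3) in ILL libraries, and the groups overlapped. FANCD2 has an annotated pseudogene copy, FANCD2P2, so some of its reads may be uncertain.

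**Figure D2:**
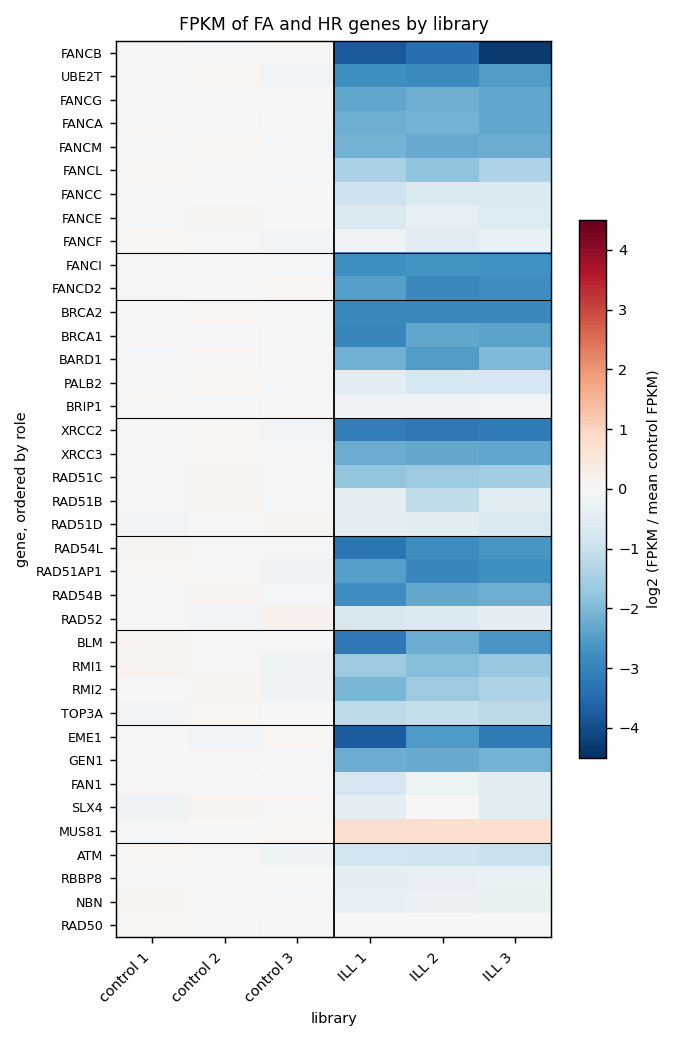
FPKM of each gene in each library on the log2 scale, relative to the mean of the control libraries, with genes ordered by role. The control libraries are near 0 throughout, and the ILL libraries are blue (lower) for most genes, pale for BRIP1, RAD50, SLX4 and FANCF, and light red (higher) for MUS81.

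The BRCA genes load and regulate the recombinase. BRCA2, the loader itself, was at 4.16, 4.48 and 3.91 FPKM in control and at 0.566, 0.561 and 0.556 FPKM in ILL libraries. The ILL libraries were nearly identical, and the log2 fold change was -2.83 (SE 0.09, adjusted p = 2.89e-19 by edgeR). BRCA1, a ubiquitin ligase that promotes end trimming, was at 5.76, 5.32 and 5.66 FPKM in control and at 0.734, 1.10 and 1.04 FPKM in ILL libraries. Its log2 fold change was -2.47 (SE 0.11, adjusted p = 7.43e-16), and BARD1, its obligate partner, fell by 2.12. The BARD1 to BRCA1 ratio was 1.35 ± 0.0936 (SD, n = 3) in control and 1.78 ± 0.554 (SD, n = 3) in ILL libraries, with overlap.

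The remaining genes of this group moved less. PALB2, which bridges BRCA1 and BRCA2, was at 5.80, 6.08 and 5.37 FPKM in control and at 4.01, 3.32 and 3.41 FPKM in ILL libraries, a fall of 0.61 on the log2 scale (SE 0.09, adjusted p = 1.39e-06 by edgeR). BRIP1, a DNA helicase that binds BRCA1, was at 2.70, 2.47 and 2.65 FPKM in control and at 2.31, 2.29 and 2.42 FPKM in ILL libraries. Its log2 fold change was -0.08 (SE 0.08, adjusted p = 0.316), which is 94.3% of control, and it passed the test in none of 15 alternatives. Unlike BRCA1 and BRCA2, BRIP1 thus stayed within a narrow range in all 6 libraries. The ratio of BRIP1 to BRCA1 was 0.467 ± 0.0032 in control and 2.52 ± 0.563 in ILL libraries (SD, n = 3 each), and that of PALB2 to BRCA2 was 1.37 ± 0.0189 and 6.38 ± 0.621.

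The recombinase paralogs help to build and hold the recombinase filament. XRCC2 was at 11.2, 11.3 and 9.89 FPKM in control and at 1.25, 1.17 and 1.21 FPKM in ILL libraries, a log2 fold change of -3.09 (SE 0.09, adjusted p = 9.12e-20 by edgeR). It moved from the 10th to the 25th place in level among the members. XRCC3 fell by 2.22 and RAD51C, which belongs to both paralog complexes, fell by 1.57, from 16.1 ± 1.31 to 5.14 ± 0.47 FPKM (SD, n = 3). RAD51B and RAD51D, which join RAD51C and XRCC2 in the BCDX2 complex, fell less, by 0.60 and 0.47. Within that complex the ratio of XRCC2 to RAD51D was 3.98 ± 0.581 in control and 0.647 ± 0.0518 in ILL libraries (SD, n = 3 each), without overlap. The XRCC3 to RAD51C ratio changed less, from 0.623 ± 0.0201 to 0.4 ± 0.053.

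The recombinase partners drive strand exchange. RAD54L, a motor protein that moves recombinase-bound DNA, was at 6.36, 5.41 and 5.64 FPKM in control and at 0.598, 0.817 and 0.933 FPKM in ILL libraries. Its log2 fold change was -2.82 (SE 0.15, adjusted p = 1.85e-14 by edgeR), and its relative RAD54B fell by 2.34. RAD51AP1, which stimulates strand pairing, was at 26.8, 26.1 and 22.7 FPKM in control and at 4.49, 3.32 and 3.76 FPKM in ILL libraries, a fall of 2.64. RAD52, the annealing protein, stood apart from these 3 with a fall of 0.52 (SE 0.14, adjusted p = 0.00195), from 2.13 ± 0.268 to 1.42 ± 0.15 FPKM (SD, n = 3).

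The BLM complex dissolves joined molecules without a crossover. BLM, its helicase, was at 5.02, 4.42 and 4.48 FPKM in control and at 0.494, 0.992 and 0.756 FPKM in ILL libraries. The ILL libraries differed among themselves but were all below the controls, with a log2 fold change of -2.56 (SE 0.16, adjusted p = 2.96e-13 by edgeR). The accessory subunits RMI1 and RMI2 fell by 1.69 and 1.60, and TOP3A, the topoisomerase, by 1.08 (SE 0.09, adjusted p = 1.5e-10). TOP3A was just beyond the cutoff at 47.3% of control, and with limma on log2 of FPKM plus 1 its value was -0.81, inside the cutoff. The BLM to TOP3A ratio was 1.29 ± 0.186 in control and 0.454 ± 0.131 in ILL libraries (SD, n = 3 each).

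The nucleases split in direction. EME1 and MUS81 form a heterodimer that cuts branched DNA, with MUS81 as the catalytic subunit. EME1, on chromosome 17 from 50373220 to 50381483, was at 5.24, 4.79 and 5.48 FPKM in control and at 0.384, 0.891 and 0.588 FPKM in ILL libraries. MUS81, on chromosome 11 from 65857126 to 65867653, was at 14.1, 14.5 and 15.5 FPKM in control and at 24.1, 24.8 and 24.8 FPKM in ILL libraries. EME1 fell by 2.99 on the log2 scale (SE 0.22, adjusted p = 1.38e-11 by edgeR). MUS81 rose, with a log2 fold change of 0.81 (SE 0.07, adjusted p = 6.84e-11), which is 1.75-fold higher, and it was the member with the highest FPKM in ILL libraries. The ratio of EME1 to MUS81 was 0.372, 0.330 and 0.352 in control libraries and 0.0159, 0.0359 and 0.0237 in ILL libraries. EME2, the alternative partner of MUS81, had a log2 fold change of 0.24 (SE 0.23, adjusted p = 0.352) and is named here after its value was seen.

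The other nuclease genes also differed. GEN1, which resolves Holliday junctions on its own, was at 7.74, 7.82 and 7.18 FPKM in control and at 1.62, 1.59 and 1.75 FPKM in ILL libraries, a fall of 2.13 (SE 0.08, adjusted p = 3.32e-17 by edgeR). FAN1, a nuclease that binds ubiquitinated FANCD2, fell by 0.40 (SE 0.12, adjusted p = 0.00594). Without ILL replicate 1 the FAN1 value was -0.28 with an adjusted p of 0.0531. SLX4, the scaffold that carries several nucleases, had a log2 fold change of -0.24 (SE 0.14, adjusted p = 0.128), and its groups overlapped at 1.002, 1.28 and 1.19 FPKM in control and 0.845, 1.15 and 0.7998 FPKM in ILL libraries. Without ILL replicate 2 the SLX4 value was -0.43 with an adjusted p of 0.00892, and without control replicate 1 it was -0.34 with an adjusted p of 0.0458.

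The pairs of genes set as ratios were chosen after their values were seen, so the ratios are descriptions without a test.

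The 4 members for break sensing and resection fell by less than 2-fold or did not pass the test. This does not extend to all genes of the role, since DNA2 and EXO1, nucleases that extend end trimming and belong to a further list, had log2 fold changes of -2.92 and -3.10. MRE11, of the same further list and of the break-sensing complex with RAD50 and NBN, had a log2 fold change of -1.37 (SE 0.08, adjusted p = 5.4e-14 by edgeR). DNA2 and MRE11 are named here after their values were seen. RAD50, the long coiled-coil subunit of the break-sensing complex, was at 8.32, 7.63 and 7.78 FPKM in control and at 7.75, 7.73 and 7.98 FPKM in ILL libraries, and the groups overlapped. Its log2 fold change was 0.05 (SE 0.06, adjusted p = 0.44 by edgeR), and with scaling by library size only it was -0.017, so no direction is given. NBN, the subunit that recruits the checkpoint kinase, fell by 0.25 (SE 0.06, adjusted p = 0.000953), from 16.1 ± 1.25 to 12.9 ± 0.377 FPKM (SD, n = 3). The NBN to RAD50 ratio was 2.03 ± 0.0874 in control and 1.64 ± 0.0643 in ILL libraries (SD, n = 3 each). RBBP8, which starts end trimming, fell by 0.30 (SE 0.06, adjusted p = 4.03e-05) and was the second highest member in ILL libraries, after being the third highest in controls, at 22.9 ± 0.981 FPKM (SD, n = 3). ATM, the kinase that signals breaks, had the largest fall of these 4 at 0.85 (SE 0.08, adjusted p = 1.34e-09), from 3.73, 3.64 and 3.08 FPKM in control to 1.90, 1.88 and 1.76 FPKM in ILL libraries.

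Other genes of the FA and HR pathways were taken from a further list of 40 symbols, of which 37 were tested. Of these, 25 fell, or 67.6%, beside 36.9% of all genes tested, 2 rose, beside 36.2%, and 10 did not pass the test. DEGs lower with ILL were 17, or 45.9%, beside 11.4% of all genes tested. The median log2 fold change was -0.94. MND1, a recombinase cofactor best known from meiosis, fell by 3.14 (SE 0.17, adjusted p = 1.37e-14 by edgeR). EXO1, a nuclease that extends end trimming, fell by 3.10, and POLQ, the polymerase of an end-joining route that competes with HR, by 3.05. WDR48 and RECQL5 rose, by log2 fold changes of 0.63 (SE 0.09, adjusted p = 1.83e-06) and 0.35 (SE 0.13, adjusted p = 0.0175), while UIMC1, a ubiquitin reader that binds BRCA1 complexes, fell by 0.24. WDR48 activates USP1, the enzyme that removes ubiquitin from FANCD2. USP1 itself, named after its value was seen, fell by 1.38, and the USP1 to WDR48 ratio went from 7.95 ± 0.383 to 1.98 ± 0.109 (SD, n = 3 each).

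Across the 38 members the change was only weakly related to level or gene size. Spearman's rho of the log2 fold change was -0.176 with the control FPKM and 0.128 with the length of the gene on the chromosome, over 38 genes that share the same libraries. The members lie on 17 chromosomes.

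Exons of 13 members share bases with another gene of the table, and the sources used here do not say whether counting used strand, so reads there cannot be told apart. XRCC3 shares 76.7% of its annotated exonic bases with KLC1 on the opposite strand, which rose (log2 fold change 0.33). RAD54B shares 59.1% with FSBP on the same strand, which had 0 counts in all libraries. RAD54L shares 25.1% with LRRC41, FAN1 24.3% with MTMR10 and FANCA 23.6% with ZNF276, with log2 fold changes of 0.09, 0.05 and -0.33 for the opposite-strand genes. FANCL shares 18.7% with VRK2, which had from 1090 to 1370 counts and a log2 fold change of 0.19. EME1 shares 16.4% with LRRC59 on the opposite strand, which had from 12389 to 15685 counts, far more than the 26 to 376 of EME1, and a log2 fold change of -0.16. MUS81 shares 14.1% with CFL1 and EFEMP2 on the opposite strand. CFL1 had from 78750 to 90730 counts and a log2 fold change of 0.19, and the part of these neighbours in the EME1 and MUS81 counts was not tested. RAD51AP1 and RBBP8 have annotated pseudogene copies, which makes some of their reads uncertain too.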

How the data were processed

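RNA of HCCC9810 cells was sequenced in 3 control and 3 ILL libraries, with groups and replicate numbers as in the titles. For each library, a table of raw counts and a table of FPKM, both by gene symbol, were deposited by the authors. The deposited FPKM follow from the counts, the library total and 1 whole-number length a gene (100% of 88055 nonzero values within 0.1%). The submitters' processing notes name GRCh38 and DESeq2. The aligner, counting program and annotation are not given in the sources used here.

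Counts were filtered with filterByExpr, scaled by TMM and fitted with edgeR 4.0.16 (R 4.3.3) by quasi-likelihood over all 13066 genes retained, with p-values adjusted by Benjamini-Hochberg. A standard error is the log2 fold change divided by the square root of the F statistic. DEGs passed an adjusted p of 0.05 and a fold of 2 up or 0.5 down. Total counts were 34282764 to 37758569, and a biological coefficient of variation of 0.0717 leaves standard errors of 0.06 to 0.22 for the members. The fit was tested on simulated data.

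All members may be named. Of the other lists, the 3 lowest and 3 highest genes were named among those with an adjusted p under 0.05, no overlap and at least 1 CPM. Members and lists were chosen with earlier results of these data known. Alternatives were other scalings and filters, DESeq2 1.42.0, blocking on replicate number, leaving out each library in turn, and limma 3.58.1 on log2 of FPKM plus 1 or 0.1. Gene positions are from GENCODE release 29 on GRCh38.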

Additional observations from a re-analysis of the deposited data

How the results depend on the processing

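The count of members lower with ILL at an adjusted p under 0.05 was 33 and was 33 or 34 in the 15 alternatives, and the count higher was 1 in each. The count of DEGs lower with ILL was 23, and 22 with limma on log2 of FPKM plus 1, with or without its filter. No member was a DEG higher with ILL in any alternative. The median log2 fold change of the members was -1.65, from -1.73 to -1.60 in the fits without 1 library, and -1.36 and -1.35 with limma on log2 of FPKM plus 1, with and without a mean of at least 1 FPKM. The larger pseudocount shrinks genes of low FPKM by construction: it moved 8 of 34 called members by over 1.5 times without the filter, FANCB to -1.36. With the filter, RAD51B was not tested. In limma on FPKM the share of DEGs higher with ILL over all genes was 42% to 42.3% against 52.4%. With 0.1 added, the median of all genes was -0.1012, and that of the members was -1.69.

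Of the 38 members, 34 had the same sign and the same call in every alternative run for them. FAN1, FANCF, SLX4 and RAD50 did not. FANCF passed with scaling by library size only, without control replicate 3, without ILL replicate 1 and with limma on FPKM where a mean of at least 1 was asked. RAD50 passed in none, and its log2 fold change was -0.017 with library size only, -0.014 with limma on log2 of FPKM plus 1 with or without the filter, and -0.015 with 0.1 added. The cause of these changes was not tested.

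With the replicate number as a block, the counts were 33 lower, 1 higher and 23 DEGs lower, with a median of -1.65, and no call on a member changed. Deviations of same-numbered libraries correlated between -0.0218 and 0.0107, and not every library correlated best with its own number. No pairing by number was thus visible. Such values cannot exclude that same-numbered libraries were handled together, and the labels do not say. EME1 (lowest count 26) and FANCB (lowest count 27), the members with the lowest ILL counts, had the widest standard errors of the members. The part of depth in their precision was not tested.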

Other observations

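End joining, the other main route of break repair, ligates ends without a template. All 15 genes of an end-joining list were tested, of which 9 fell, or 60%, beside 36.9% of all genes tested, 4 rose, beside 36.2%, and 2 did not pass the test. Of the 15, 3 were DEGs lower with ILL, or 20%, beside 11.4% of all genes tested, and the median log2 fold change was -0.59. PAXX and PRKDC, the catalytic kinase of the pathway, both fell by 1.47, and RIF1, which protects ends from trimming, by 1.15. The Ku genes XRCC5 and XRCC6, named after their values were seen, fell by 0.89 and 0.90. LIG4, the ligase of the pathway, rose by a log2 fold change of 0.69 (SE 0.08, adjusted p = 2.02e-08 by edgeR), POLL, a gap-filling polymerase, by 0.56 and SHLD1, a shieldin subunit, by 0.45 (adjusted p = 0.0478). The difference between the lists was not tested.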
